A study of Mus musculus with 11 samples.

Results

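The 150 genes that varied most between wildtype mice of one genotype, strain, sex, age and diet were described in epididymal white adipose tissue (eWAT), the fat pad attached to the epididymis of male mice. They were chosen on measured values: the 6 wildtype (WT) mice averaged 100 or more in 8105 of the 15453 genes, and the 150 with the largest standard deviation (SD) divided by the mean among those 6 mice were taken, 1.85% of the 8105. The 5 other mice carried a deletion of Mest exon 3 on the paternal allele (pKO), which leaves only the silent maternal copy of this imprinted gene. All 11 were male C57BL/6J progeny of crosses between WT females and males with a maternally inherited inactive Mest allele, were 16 weeks old, and had been fed a high fat diet from 8 weeks of age. The deletion was made in the germ line with an Ella-cre transgene, so every tissue carried it. Each fat pad's RNA was measured by SAGE (serial analysis of gene expression): 1 short tag next to the last NlaIII site of a polyadenylated transcript was sequenced and counted.

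White fat is a mixture of lipid-filled fat cells with macrophages, vessels, fat cell progenitors, nerves and the mesothelial sheet that covers the pad. Fat cells make up most of its volume and release hormones such as adiponectin, leptin and adipsin, and the other cells hold many of its nuclei. A dissected epididymal pad lies against the epididymis, a duct lined by secretory and ciliated epithelium. A bulk value cannot tell fewer cells of a type from less RNA in each cell.

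Mest, the targeted gene, had values of 20756 to 27897 in the WT and 793 to 2275 in the pKO mice, which did not overlap (log2 WT minus pKO 3.99, SE 0.22; limma adjusted p = 1.2e-06). Fat cell genes were high in every mouse: Adipoq, which encodes adiponectin, lay between 53365 and 88529, and Pparg, the master transcription factor of fat cells, between 6956 and 13375. Libraries held 9659740 to 14825727 tags, and 1 tag was worth 0.836 to 1.19 units of the deposited, size-factor-scaled value used throughout. Counting error was therefore small beside the spread that chose the members: it accounts for an SD of at most 0.0984 of the mean for any member, whereas the smallest SD/mean among them was 0.494.

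The members spanned SD/mean values from 0.494 to 1.52, with a median of 0.564, where the median of all 8105 genes was 0.144. In the median member the highest WT mouse had 5.52 times the value of the lowest, against 1.47 times in the median of the 8105. Their WT means ran from 101 to 82245 with a median of 297, below the 399 of all 8105 genes. The selection cuts through a continuous range. Just inside it were Svep1 (SD/mean 0.4949), Phlda3 (0.4945) and Uqcc (0.4942), and just outside were Rpl32 (0.4937), Tor1a (0.4930) and Rbmx (0.4919).

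**Figure D1:**
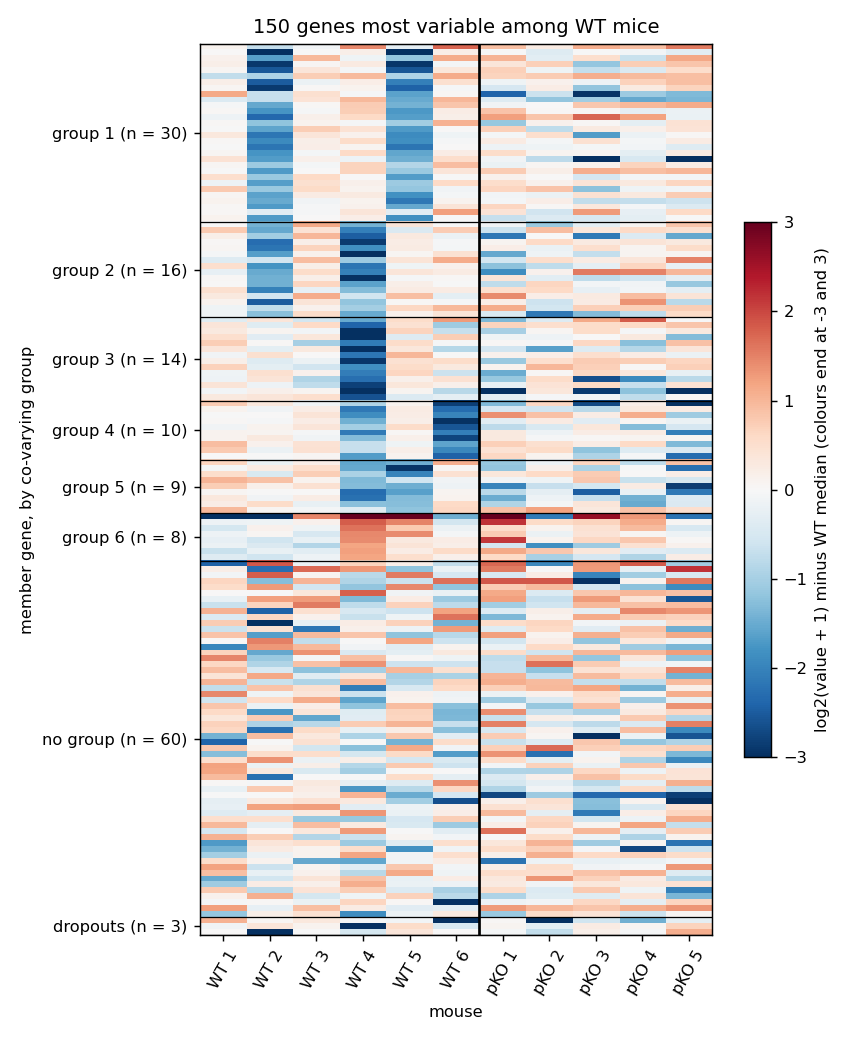
Log2(value + 1) of each of the 150 members (1 thin row a gene, ordered by co-varying group) in each of the 11 mice (columns), as the difference from the gene's WT median. Blue is lower and red higher; groups 1 to 5 show blue blocks in 1 or 2 WT columns and group 6 a red block in WT 4 and WT 5, and no such block crosses all pKO columns.

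Abundant transcripts were among the members. The one with the highest WT mean, named here because of that value, was Cav1, the coat protein of the membrane pits (caveolae) that cover fat cells. Cav1 read 102611 in WT 1, 138610 in WT 2, 27627 in WT 3, 64538 in WT 4, 128084 in WT 5 and 32002 in WT 6. The pKO mice ran from 44519 to 139495, so Cav1 differed several-fold between mice of both genotypes and the groups overlapped.

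The largest SD/mean of all, 1.52, belonged to Cuzd1, a membrane protein with CUB and zona pellucida-like domains, which is described with group 6. Fam100a came next (0.921), reading 44.8 in WT 1, 906 in WT 2, 218 in WT 3, 394 in WT 4, 279 in WT 5 and 147 in WT 6. It was unequal among pKO mice too, with 822, 64.2, 605, 889 and 119 in pKO 1 to 5. As3mt, an arsenite methyltransferase (SD/mean 0.869), read 20.5 in WT 2 and 44.4 in WT 5 and from 90.2 to 337 in the other 4. The uncharacterised A030007N12Rik (0.786) showed the opposite: 1041 in WT 2 and 863 in WT 5 against 166 to 309 in the rest. Coq7, an enzyme of ubiquinone synthesis (0.746), was likewise highest in WT 2 (1227) and WT 5 (1371), intermediate in WT 1 (744), and 221 to 341 in the remaining 3. Cnpy2, a chaperone-like protein of the endoplasmic reticulum (0.707), was highest in WT 2 (1477) and WT 3 (1519) and lowest in WT 4 (250) and WT 6 (296). The other genes at the top were Gm10549, Gpr64, Ap4s1, Adap2, Wdfy1, Rdm1, Timm44, LOC101056072 and Ufsp2, with SD/mean between 0.680 and 0.781. Of these, LOC101056072 had the largest ratio between mice, reading 27.6 in WT 2 while the other WT mice read 148 to 682.

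In 3 members a single library lay under 1/10 of the next lowest, and these were set apart as dropouts. Clybl, a mitochondrial lyase, read 18.5 in WT 4 and 898 to 1832 in the other WT mice. 1810013D10Rik read 31.7 in WT 2 and 417 to 781 elsewhere. Gnpda1, which converts glucosamine 6-phosphate to fructose 6-phosphate, read 7.12 in WT 6 and 98.4 to 216 elsewhere. Among pKO mice Clybl (1022 to 1994) and 1810013D10Rik (360 to 1292) showed no such value, whereas Gnpda1 read 3.44 in pKO 2 and 38.0 to 106 in the others. In 0 of the 150 did the highest WT value exceed 3 times the second highest. Adap2 stayed under this limit although it read 263 in WT 4 and 65.3 to 94.5 in the other WT mice.

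The other 147 members were clustered on the correlation of their log2 values over the 6 WT mice, at a mean r of 0.7. This gave 6 groups of at least 8 genes with 87 members in all, 14 clusters of 2 to 7 genes with 54 members, and 6 members alone. With only 6 mice, genes that share 1 or 2 extreme libraries correlate by construction, so the groups describe which libraries were extreme. WT 4 was the lowest library for 47 members and WT 2 for 36, whereas over the 8105 genes they were lowest in 19.3% and 13.1%. WT 1 was lowest for 13 members and WT 3 for 9. Functions were mixed within each group. Of 31 lists of cell type and pathway genes, 9 held 1 member each and 22 held none, so 141 members were on no list.

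**Figure D2:**
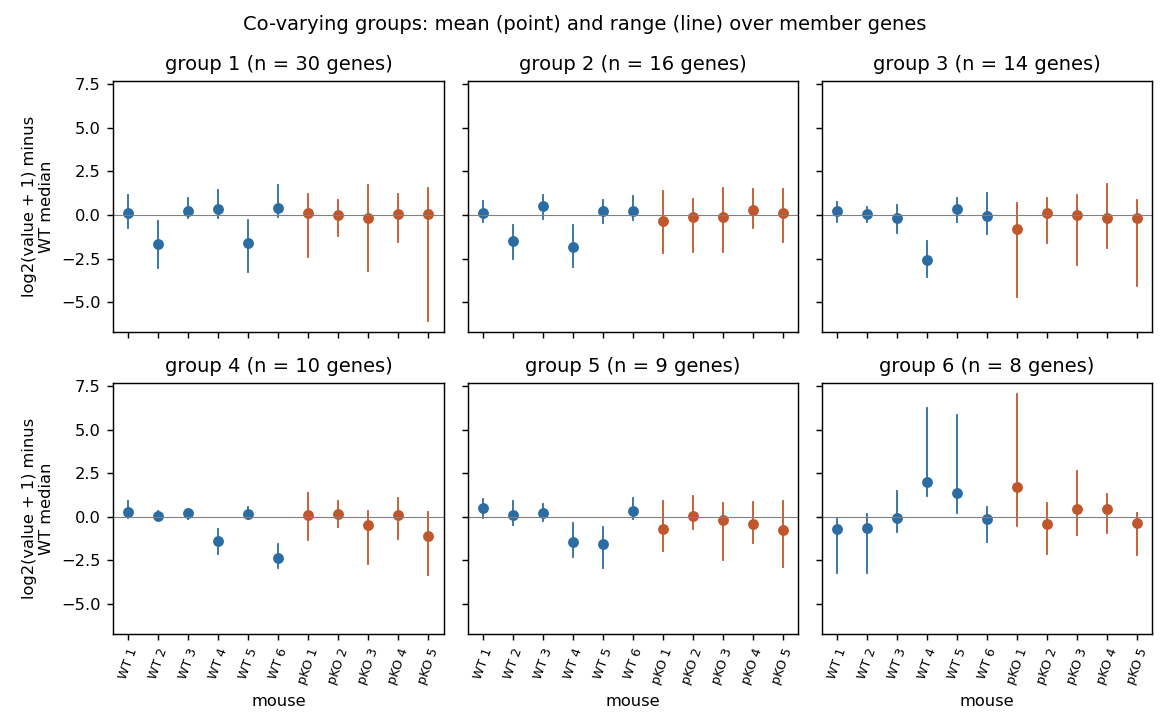
Each panel is a co-varying group; points give the mean over its genes, and lines the lowest and highest gene, of log2(value + 1) minus the gene's WT median, for each WT (blue) and pKO (orange) mouse. Groups 1 to 5 lie 1.38 to 2.57 log2 units below the WT median on average in their low WT mice, and group 6 lies 1.37 to 2.02 above it in WT 4 and WT 5.

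Group 1 (30 genes) was low in WT 2 and WT 5, where all 30 lay below their WT median, by 1.67 and 1.63 log2 units on average; the other 4 WT mice averaged 0.0988 to 0.410 above it. Its most abundant genes were Gabarap (an autophagy protein), the zinc finger gene Zfp935, the heparan sulfate proteoglycan Sdc3, Rbp4 (the plasma retinol carrier, also released by fat cells) and Ost4 (a subunit of the enzyme that N-glycosylates proteins). Zfp935 read 607 in WT 2 and 827 in WT 5 against 4331 to 4775 in the other 4 WT mice. Gabarap read 1121 and 1221 against 3172 to 5794, and Sdc3 read 949 and 649 against 2056 to 3148. No WT mouse fell between these levels for any of the 3 genes. Among the pKO mice no library was low in this way: the group averaged from 0.177 below to 0.144 above the WT median in each. Single genes were lower there: in 5 of the 30 at least 1 pKO mouse lay under the lowest WT mouse. Among these, Ost4 read 23.5 in pKO 5 and 179 in pKO 3 against 953 to 1531 in the rest.

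Group 1 also held 3 genes of the macrophage surface, Tyrobp (the signalling adaptor DAP12), Sirpa (the receptor of the "do not eat me" signal CD47) and Gpr34 (a lysophospholipid receptor). Tyrobp read 36.8 in WT 2 and 35.7 in WT 5 and 209 to 282 in the other WT mice. For comparison, 20 other listed macrophage genes summed to 70587 in WT 2 and 68726 in WT 5 and to 77787 to 82976 in the rest, so these 2 mice were the lowest on that summed measure too, by a smaller factor. That list also held Cd36, a fatty acid carrier not confined to macrophages, and Emr1 (669 to 1048 in WT mice) was a small part of the sum. Which genes dominated the sum was not examined. Single macrophage genes were mixed. Emr1 was lowest in WT 5 (669) and WT 2 (680). Fcer1g was lowest in WT 4 (500), with 617 in WT 5 and 1026 in WT 2. Cd68 was lowest in WT 1 (23.8), with 37.9 in WT 2 and 29.9 in WT 5. Saa3, an acute phase protein made by inflamed fat, read 80.8 in WT 2 and 42.5 in WT 5 against 127 to 291 in the other WT mice, and 24.0 in pKO 1 and 16.3 in pKO 3. The 13 other acute phase genes, dominated by haptoglobin, summed to 112763 in WT 2 and 96782 in WT 5 against 122596 to 158996. The part of macrophage content in the group's values was not tested.

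Group 2 (16 genes) was low in WT 2 and WT 4, by 1.50 and 1.82 log2 units on average, again in all 16 genes. H2-Eb1, the beta chain of the antigen-presenting molecule I-E, read 982 in WT 2 and 743 in WT 4 and 3104 to 4849 in the other WT mice. Other antigen presentation genes set beside it did not show this split. The invariant chain Cd74 read 34857 in WT 2 and 36504 in WT 4, within the 30366 to 45649 of the other 4, and H2-Aa read 11881 and 12135, within 11575 to 16848. H2-Ab1 read 4467 and 4654, within 2980 to 8441. For each of these genes only WT 5 was lower than WT 2 and WT 4. Cops6, a subunit of the COP9 signalosome, read 535 in WT 2 and 685 in WT 4 against 2367 to 3859. Dcxr, a carbonyl and xylulose reductase, read 191 and 127 against 912 to 1090, and Nudt18, a nucleotide diphosphatase, read 993 and 349 against 2631 to 3046. The group further included Trnt1, which completes the 3′ ends of tRNAs, and Nr1d1, the clock repressor REV-ERB alpha. In the pKO mice Dcxr (995 to 1418) and Cops6 (2136 to 3592) had no value near the low ones. Other genes of the group did: Asb6 read 38.6 in pKO 1 and 39.7 in pKO 3, with 31.1 in WT 4. Likewise 0910001L09Rik read 54.9 in pKO 1, with 48.6 in WT 4. H2-Eb1 read 1453 to 5296 in the pKO mice. The group averaged within 0.338 log2 units of the WT median in each of the 5, but single genes lay from 2.16 below (pKO 1) to 1.55 above (pKO 3).

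Group 3 (14 genes) was low in WT 4 alone, by 2.57 log2 units on average and by at least 1.51 in every gene. Cfd, the complement factor adipsin and the group's most abundant gene, read 1571 in WT 4 and 3026 to 10784 in the other WT mice. The 14 other listed fat cell genes summed to 859886 in WT 4, inside the range of the other 5 (741854 to 1177811), a sum that the fatty acid carrier Fabp4 dominates. Among the 14, leptin (Lep) was also lowest in WT 4, at 26224 against 49844 to 64369 in the other WT mice. Resistin (Retn, 10123) and Adipoq (61208) lay within the other WT mice. Apoc1, a small apolipoprotein, read 66.0 in WT 4 against 489 to 1250. Junb, an immediate early transcription factor, read 29.1 against 165 to 381. Crtac1, a secreted cartilage protein, read 96.1 against 450 to 854. Among pKO mice Crtac1 (355 to 610) and Apoc1 (397 to 1161) had no value as low as in WT 4. Cfd, however, read 1752 in pKO 1, near its WT 4 value, and 3412 to 15638 in the other pKO mice. The group averaged 0.788 log2 units below the WT median in pKO 1, where 10 of the 14 genes lay below it. In the other pKO mice it averaged from 0.194 below to 0.0977 above. Yars2, the mitochondrial tyrosyl-tRNA synthetase, read 19.4 in WT 4 and was also low in pKO 1 (7.73), pKO 5 (12.3) and pKO 3 (29.5), against 93.6 and 283 in the other pKO mice.

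Group 4 (10 genes) was low in WT 6 and, less so, in WT 4, by 2.34 and 1.38 log2 units. S100a6, a calcium-binding protein of fibroblasts and other cells, read 813 in WT 6 and 2337 in WT 4 against 6129 to 7412 in the other WT mice. Ppp1r9b (spinophilin) read 457 and 514 against 2110 to 2713, and Stk3, a kinase of the Hippo pathway, read 96.1 and 162 against 508 to 556. The other 4 WT mice were close to each other in all 3 genes. In the pKO mice Stk3 was low in pKO 5 (103) and pKO 3 (273) against 501 to 798, and the group averaged 1.09 log2 units below the WT median in pKO 5. Krt7, a keratin of simple epithelia and mesothelium, read 67.7 in WT 6, 73.8 in WT 4 and 269 to 355 in the other WT mice. The sum of 13 other mesothelial genes was 3804 in WT 6 and 4522 in WT 4, inside the 3493 to 4686 of the other 4.

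Because SAGE counts 1 tag a transcript, the members' predicted tags were examined: the 27 bases that begin at the last NlaIII site (letters CATG) of GENCODE M21 transcripts on GRCm38. A tag could be predicted for 143 members, 13 of them through an older symbol, and for 7980 of the 8105 genes. Of 139 placed on the genome, 90 lay in a 3′ UTR, 17 in coding sequence, 5 across a boundary of coding and untranslated sequence and 27 in transcripts without an annotated coding part. The tags below are those of groups 3 and 4 that carry the starts these groups share, and they are shown for that reason; capitals mark the 3 bases after the NlaIII site.
Apoc1: catgACCttggaaggcccagcccccgc
Ssr2: catgACCttgccctccataggcatccc
Wdtc1: catgACCtttctcaagccagggagggg
S100a6: catgCCCtctggatcaggccattggcc
Ppp1r9b: catgCCCtctgtcaggtcgtccccata
Fam117a: catgCCCtctacccaccccaaggttgg
Basp1: catgTCCgtggttgggtgcacctgtag
Ephb4: catgTCCctgcagaccaaagagaaagg
Islr2: catgTCCttttctaaatgcttctgtat
Stk3: catgTCCtttttgactgtgtgtgtgtg

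On GRCm38 the Wdtc1 tag lies at chr4:133292713-133292739 on the minus strand, in the 3′ UTR in exon 16 of 16. The Stk3 tag lies at chr15:34875563-34875589 on the minus strand, in the last of 11 exons. The S100a6 tag lies at chr3:90613771-90613797 on the plus strand. The Apoc1 tag spans an exon junction.

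The start of the tag moved with the library in genes outside the members too. Of non-members with a WT mean of at least 100, 84 (1.07%) had a tag with ACC after the site, and in WT 4 their median lay 0.842 log2 units below the median of the WT mice; WT 4 was the lowest WT mouse for 70.2% of them. For the 110 non-members (1.40%) with CCC the WT 4 median was 0.381 below. For the 106 (1.35%) with TCC the WT 6 median was 0.358 below, and WT 6 was lowest for 54.7%. Elsewhere among the WT mice no start with at least 20 genes had a median 0.3 or more below. The pKO libraries had low starts too, measured from the median of the pKO mice. In pKO 5 the median was 0.678 below for the 183 non-members with TCT, 1.01 below for the 21 with TCG, 0.340 below for the 23 with CCG and 0.290 below for TCC. In pKO 1 it was 0.483 below for the 113 with GCA and 0.332 for the 39 with GCG, and in pKO 3 it was 0.702 below for TCG. Of the 44 members with a tag whose lowest WT mouse was WT 4, 6 began with ACC or CCC, as did 3 of the 99 others and 2.48% of non-members. Of the 21 whose lowest WT mouse was WT 6, 6 began with TCC, as did 6 of the 122 others. In group 3, 4 of 13 tags began with ACC, and in group 4, 3 of 10 began with CCC and 4 with TCC. The low mean of group 4 in pKO 5 was unequal by start: its 4 TCC genes averaged 2.03 log2 units below the WT median there, its 3 CCC genes 0.0347 above it and the other 3 genes 0.963 below. Groups 1, 5 and 6 had no ACC or CCC start, and in group 1, low in WT 2 and WT 5, no start ran low across genes. Removing each start's median from each library left 145 of the 150 members in the selection, and 3 of the 5 that left it were of group 3. Of the 14 genes of group 3, 8 then stayed in 1 group, and in groups 1, 2, 4, 5 and 6 the numbers were 30 of 30, 16 of 16, 10 of 10, 8 of 9 and 8 of 8. This step removed only the median shift of each start, which for ACC in WT 4 was 0.842 log2 units, where group 3 lay 2.57 below. It could not remove a larger shift of single tags or of longer starts. These counts therefore do not measure the part of the tag start in the members' values. Why tags with these starts were fewer in single libraries was not tested. Some tags also do not single out their gene: the Krt7 tag occurs in 3 further genes, and those of Fbxo17 and Mrpl27 (group 1) share their first 20 bases with each other and with other genes, so these 3 values are uncertain.

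Group 5 (9 genes) was low in WT 4 and WT 5, by 1.43 and 1.54 log2 units. Osgep, an enzyme of tRNA modification, read 1054 in WT 4 and 401 in WT 5 against 2937 to 4466 in the other WT mice. Ifi30, the thiol reductase that unfolds antigens in lysosomes, read 304 and 271 against 675 to 1256, and the transcription factor Atf2 read 407 and 403 against 835 to 1475. Lsmd1 read 1328 and 640 against 1873 to 4246. Among the pKO mice Osgep was low in pKO 5 (639), pKO 1 (1350) and pKO 3 (1593) against 3030 and 3396, and Ifi30 in pKO 5 (102) and pKO 1 (190) against 460 to 887.

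Group 6 (8 genes) was the reverse of the others, being high in WT 4 and WT 5. It held Cuzd1, the adhesion receptor Gpr64, which is known from the ducts of the male tract, Lrp2 (megalin, the endocytic receptor of absorptive epithelia), Atp1b1 (the beta subunit of the sodium pump), the lipocalin Apod, the proteoglycan Epyc, Gstm7 and 1500015O10Rik. Cuzd1 was listed at 0 in WT 1 and WT 2 and read 2.37 in WT 6, 25.1 in WT 3, 540 in WT 5 and 700 in WT 4. Among pKO mice it read 1224 in pKO 1, 56.0 in pKO 3, 22.1 in pKO 4, 1.15 in pKO 2 and 1.02 in pKO 5. WT 4, WT 5 and pKO 1 thus stood far above the other mice. Gpr64 was highest in the same 3 mice, with 456 in WT 4, 364 in WT 5 and 585 in pKO 1 against 86.6 to 141 in the other WT and 133 to 278 in the other pKO mice. pKO 1 was the highest pKO mouse for 6 of the 8 genes, where it was highest for 28.1% of the 8105. For Apod and Lrp2 it was not: Apod read 89.3 in pKO 1 within a pKO range of 35.5 to 177, and Lrp2 read 112 in pKO 1 and 148 in pKO 4.

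Some genes of epithelium moved with group 6, and others did not. Epcam, the adhesion molecule of simple epithelia, read 161 in WT 4, 47.3 in WT 5 and 203 in pKO 1, 18.3 in pKO 3, 7.06 in pKO 4 and at most 2.05 in the other 6 mice. Genes outside the members were ranked by the correlation of their log2 values with the mean of group 6 over the 11 mice, a description only. Cuzd1 weighs most in that mean, since genes were not scaled: in WT 4 it lay 6.22 log2 units above its WT median, where the group averaged 2.02. The closest genes were Cdh16 (r = 0.985), Crabp1 (0.980), Dcdc2a (0.977) and Epcam (0.976). Cdh16, a cadherin of tubular epithelia, read 128 in WT 4, 66.6 in WT 5 and 100 in pKO 1, was listed at 0 in 4 mice and read at most 12.2 in the others. Of 40 listed genes of epididymal and male tract epithelium, 9 were measured and none reached a WT mean of 100. Epcam is one of the 9. The other 8 summed to 115 in WT 4, 135 in WT 5 and 217 in pKO 1, and to 57.6 to 97.8 in the other WT and 61.9 to 127 in the other pKO mice, so WT 4 and WT 5 stood less far from the rest without it. Of these 8, 2 were highest among WT mice in WT 4 and 4 in WT 5. The secreted protein Adam7 read 26.1 in WT 5, 13.4 in WT 3, 7.77 in WT 4 and 0 in the other WT mice. Defb20, a defensin, read 29.9, 10.9 and 6.80 in the same mice and at most 1.19 in the rest. Gpx5, a secreted glutathione peroxidase of the epididymis, went the other way, with its lowest value, 27.2, in WT 4 and 29.7 to 45.1 in the other WT mice. Of 10 testis germ cell genes none was measured. How much epithelium each pad carried, and its part in the members' values, was not tested.

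**Figure D3:**
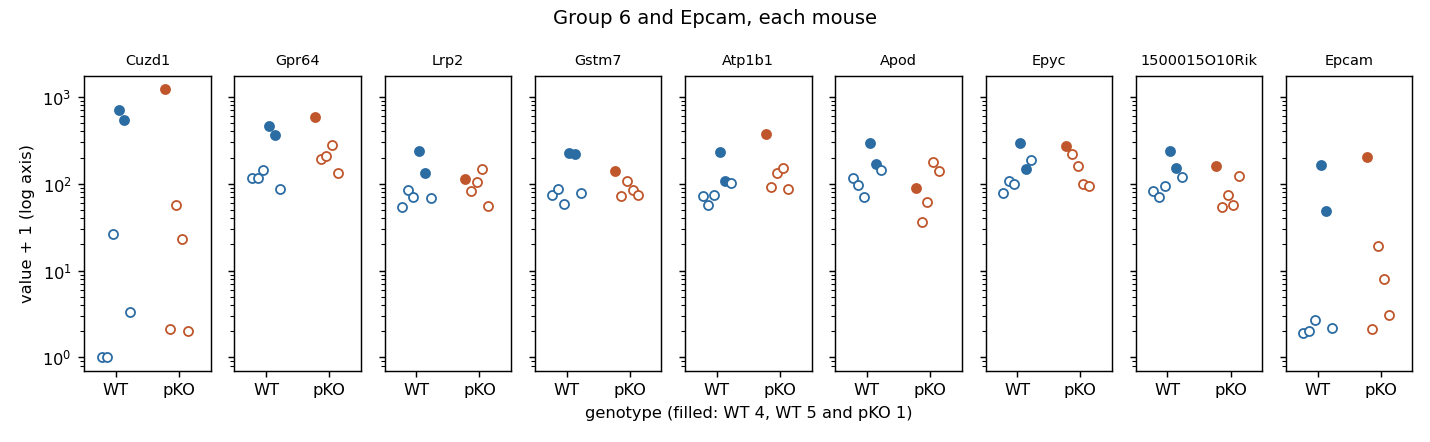
Value + 1 (log axis) of the 8 genes of group 6 and of the epithelial marker Epcam, which is no member, in each WT (blue) and pKO (orange) mouse. Filled points are WT 4, WT 5 and pKO 1: Cuzd1 reads 540 to 1224 in these and at most 56.0 in the others.

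The members outside the groups included 2 further list genes. Tagln, a smooth muscle actin-binding protein, read 380 in WT 3, 383 in WT 4 and 596 in WT 5 against 1190 to 1415 in the other WT mice, and 578 to 1830 in the pKO mice. Cd163, the haemoglobin scavenger receptor of resident macrophages, ranged from 235 in WT 6 to 987 in WT 1. Among the pKO mice their SD/mean was 0.484 for Tagln and 0.466 for Cd163. Nr1d1 ranged from 138 in WT 4 to 551 in WT 6, while 16 other clock genes summed to 3129 to 3745 over the WT mice. That sum was also highest in WT 6. Dbp (741 against 303 to 358 in the other WT mice) and Nr1d2 (155 against 87.0 to 132) were highest in WT 6 too. Per1 was highest in WT 3 (132).

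The pKO mice, whose values the selection did not use, gave a second reading of each member's spread. Of the 150 members, 137 had a pKO mean of at least 100, and 52 of these reached the SD/mean of the last member, 0.494, among the 5 pKO mice. Across all 8087 genes with a pKO mean of at least 100, 5.79% did. The median pKO SD/mean was 0.441 in the 137 members and 0.223 in the 8087 genes, and 19 of the 137 lay below the latter. The 150 most variable genes of each genotype shared 24, which is 16% of each list. Counted over genes with a pKO mean of at least 100, group 1 had 3 of 29 at or above 0.494 among pKO mice, group 2 had 4 of 14, group 3 had 3 of 12, group 4 had 3 of 10, group 5 had 4 of 8 and group 6 had 4 of 6. With tag starts centred, 51 members reached the limit so set. Some members varied little among the pKO mice. Pskh1, a serine kinase, had an SD/mean of 0.562 in WT and 0.0859 in pKO mice (298 to 373), and Nudt8 had 0.576 and 0.0899 (409 to 511).

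**Figure D4:**
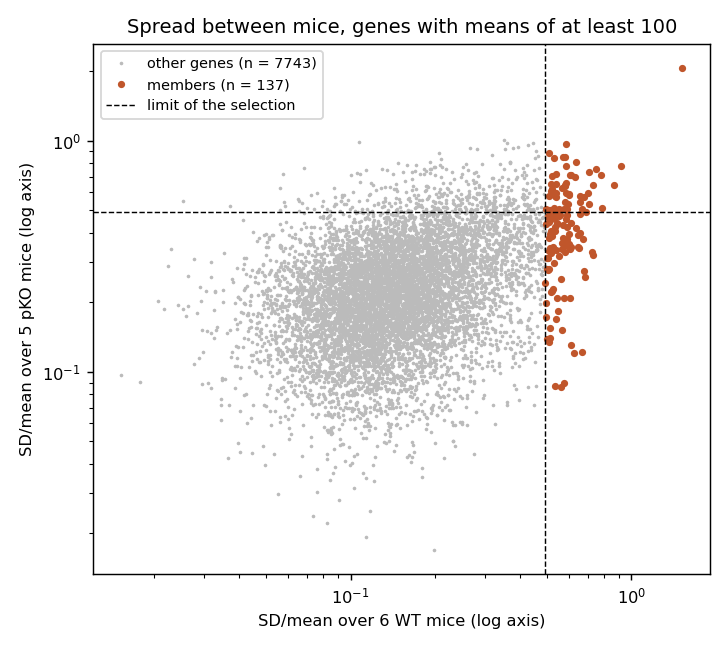
SD divided by mean over the 5 pKO mice against the same over the 6 WT mice, both on log axes, for genes with means of at least 100 in both genotypes; 137 members are orange and 7743 other genes grey. Dashed lines mark 0.494, the smallest member value; 52 members lie above the horizontal line, and by selection all lie right of the vertical one.

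Between genotypes, none of the 150 members passed limma's test on log2(value + 1) over all 15453 genes at an adjusted p of 0.1, which 0.0324% of the genes passed. At an unadjusted p of 0.05, 12 did, 4 lower and 8 higher in pKO mice. Of all genes 9.55% passed that limit, 5.35% lower and 4.2% higher, so the members' share was near the background. edgeR's test on the recovered tags gave 0 members at an adjusted p of 0.1 and 7 (4.67%) at an unadjusted 0.05, which 8.89% of all genes passed with that tool. The WT and pKO values overlapped in all 150, whereas they did not overlap in 1.24% of all genes. The WT spread that chose the members also enters the error of this contrast: the median SE of log2 WT minus pKO was 0.47 in the members and 0.17 in the 8105 genes. The members' median difference was -0.24, and that of the 8105 genes was -0.004.

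Tph2 came closest to the limit. It encodes the tryptophan hydroxylase of serotonin-producing neurons, and it is named, like the other genes of this paragraph, for passing the unadjusted limit. Its values count tags that the authors assigned to this gene, an assignment not checked here. It read 523, 527, 579, 1060, 186 and 368 in WT 1 to 6 and 78.1, 244, 103, 101 and 72.7 in pKO 1 to 5. Every WT mouse but WT 5 lay above every pKO mouse (log2 WT minus pKO 2.13, SE 0.39; limma p = 9.5e-05, adjusted p = 0.118; exact two-sided permutation test p = 0.0065, where the smallest possible is 0.0022). Saa3 read 42.5 to 291 with a median of 131 in WT and 16.3 to 83.7 with a median of 52.2 in pKO mice (log2 difference 1.57, SE 0.49; limma adjusted p = 0.37). Rbp4 read 435 to 3375 in WT and 1929 to 7435 in pKO mice, and only pKO 5 lay inside the WT range (log2 difference -1.50, SE 0.50; limma adjusted p = 0.39). Its 2 low WT mice were the 2 low libraries of group 1. The same 2 mice were lowest in WT for Prosc, a vitamin B6-binding protein, with 109 and 166 against 357 to 569, and 403 to 765 in pKO mice (log2 difference -1.08, SE 0.37; limma adjusted p = 0.40). Pgcp, a secreted carboxypeptidase, read 230 to 678 in WT and 513 to 721 in pKO mice (log2 difference -0.84, SE 0.27; limma adjusted p = 0.37). Dock8, Gpr34, Nudt8, Uqcc, Gpx1, Sbsn and A030007N12Rik had unadjusted limma p-values between 0.020 and 0.0473. Among these, Gpx1, the cytosolic glutathione peroxidase, read 3140 to 5511 in WT 2, WT 5 and WT 6, 17414 to 18968 in the other WT mice, and 10462 to 22829 in pKO mice.

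**Figure D5:**
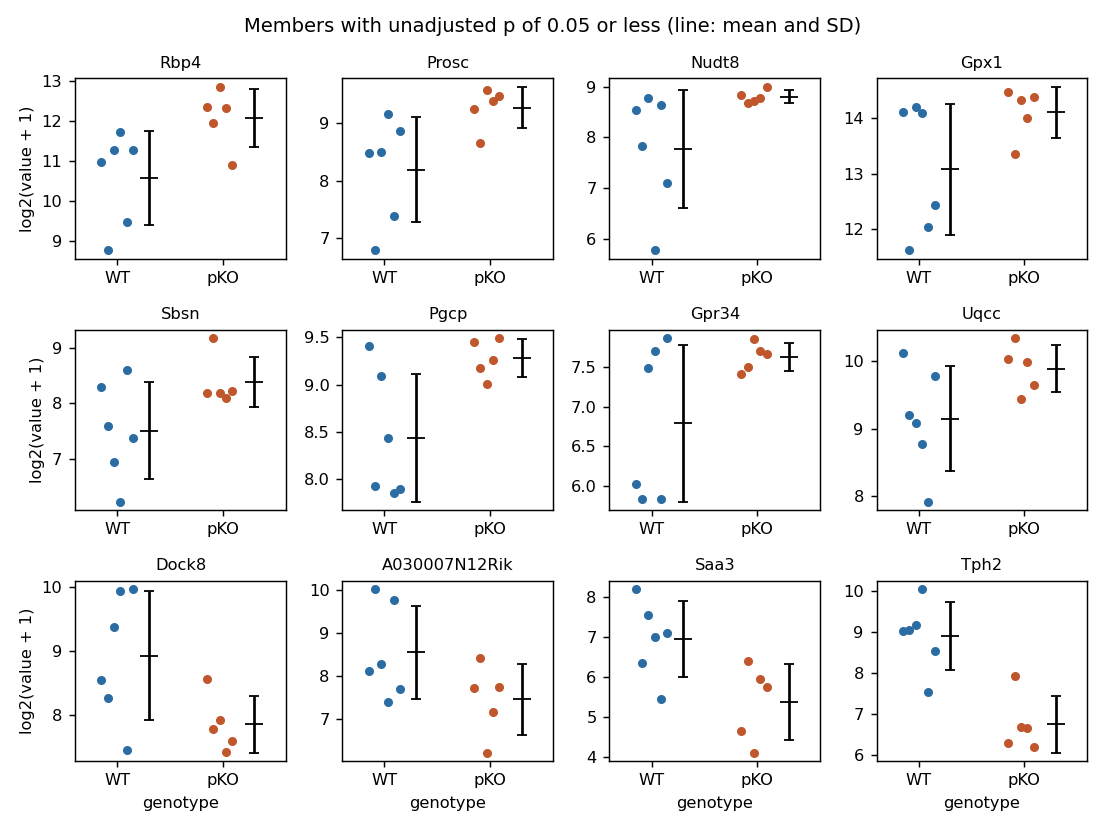
Log2(value + 1) of the 12 members with an unadjusted limma p of 0.05 or less, 1 point a mouse, WT blue and pKO orange, with the mean and SD beside each group. WT and pKO points overlap in every panel. The members were chosen for a wide WT spread, which shows for example in Gpr34, Nudt8 and Gpx1.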

How the data were processed

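The authors sequenced eWAT SAGE libraries (6 WT, 5 pKO) on a SOLiD system, assigned the tags with a modified SOLiD SAGE analysis software, and deposited 1 value for each of 15453 genes and mouse. The submitters' processing notes name genome build mm10 and edgeR 3.2.3; the annotation that paired tags with genes is not given in the sources used here. The deposited signal is a scaled tag count, the count over the library's size factor: 100% of values in each library were whole multiples of 1 step (within 0.02 tags), from which tags were recovered.

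Values of the 6 WT mice (n - 1 SD over mean, mean of at least 100) chose the 150 members. Dropouts had their lowest WT value under 1/10 of the second lowest. Average-linkage clustering on 1 minus Pearson's r of log2(value + 1) was divided at a mean r of 0.7, and groups of at least 8 are described. Genotypes were compared with limma 3.58.1 (trend) on log2(value + 1) over all genes with Benjamini-Hochberg adjustment, and for single genes with an exact two-sided permutation test over 462 splits. The limma fit was tried on simulated data that gave every gene the same dispersion and no library-specific tag shifts. That trial therefore does not cover genes as variable as the members. Alternatives used edgeR 4.0.16 and DESeq2 1.42.0 (R 4.3.3) on recovered tags, and those in the closing section. Genes named are the 15 with the largest SD/mean, the 5 most abundant of each group, members on the lists, dropouts, those beside the limit, and others said to be named for their values. The members and the lists were chosen with earlier results of these data known, and the tag-start step was added after the values had been seen. Predicted tags came from GENCODE M21 on GRCm38 (mm10); those on chromosome 18 are not shown. The labels number the mice within each genotype; numbers were taken to pair no mice, since deviations of same-numbered mice correlated between -0.086 and 0.116 over 5 pairs. Replicate libraries differed by more than sampling noise in every pair.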

Additional observations from a re-analysis of the deposited data

Results flagged for a closer look

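Of 60 sets of values checked for a mouse far from its group (54 named members over the 5 pKO mice, and library totals, genes at 0 and Mest in each genotype), 3 had one; chance gives about 1 in 20. Adap2, a phosphoinositide-binding regulator of Arf6, read 56.2 in pKO 2 and 131 to 167 in the other pKO mice (gap over range 0.78 on the log2 scale). Zfp219, a zinc finger transcription factor of group 4, read 155 in pKO 5 and 451 to 643 in the others (0.75). Nr1d1 read 193 in pKO 2 and 461 to 610 in the others (0.757). The WT values of the members were not checked in this way, since their spread chose the members.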

How the results depend on the processing

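The selection kept 111 of the 150 members with a WT mean of at least 50, 92 with at least 200, 97 with the SD of log2 values, 149 after removal of counting error, 141 and 149 with total-count and TMM scaling, 145 and 143 with tag starts centred (most common tag, longest transcript), and 93 to 128 when 1 WT mouse was left out (93 without WT 4). Members as variable among pKO mice numbered 34 with the SD of log2 values (3.75% of all genes), 48 to 57 without 1 pKO mouse, and 39 to 60 otherwise. Dropouts became 10 under a limit of 1/5, and 7 members had 1 mouse over 2 times the second highest. Co-varying groups held 105 members at a mean r of 0.6 and 61 at 0.8 or with Spearman's rho. At 0.8, 26, 13, 12 and 10 genes of groups 1 to 4 stayed together and groups 5 and 6 did not form. With Spearman's rho the groups largely broke up: 17 of 30, 7 of 16, 4 of 14 and 5 of 10 genes of groups 1 to 4 stayed together, and none of groups 5 and 6 did. With total-count scaling 9 of the 14 genes of group 3 did.

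Members past an adjusted p of 0.1 numbered 2 with DESeq2 (Tph2 and Saa3), which passed 138 of all genes against limma's 5, 0 with every other tool or scaling, and 0 to 1 without 1 mouse, Tph2 passing without WT 5 (14 of all genes) and without pKO 2 (106). At an unadjusted 0.05, members lower in pKO mice numbered 3 to 7 without 1 mouse (7 without WT 4 or pKO 4), and members higher 5 to 13 (13 without WT 4; 5 without WT 2, pKO 1, pKO 2 or pKO 4). In either direction, 5.33% of the members passed without WT 2, where 7.8% of all genes did. Without WT 4 the shares were 13.3% and 9.25%, and without pKO 2 they were 7.33% and 12.8%. Members higher numbered 5 with total-count scaling, 3 with edgeR, 5 with DESeq2 and 4 without the trend. In either direction these fits passed 6.67%, 4.67%, 6% and 4.67% of the members, against 9.56%, 8.89%, 9.33% and 9.22% of all genes. In the fit blocked on replicate number, from which WT 6 drops out, 9 were lower and 21 higher, 20% of the members against 7.89% of all genes, and 0 passed the adjusted limit; the numbers share no stated litter or batch. Mest kept its direction and its call in 23 of 23 alternatives.

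Limits: with 6 and 5 mice, groups rest on single libraries; library batches are not given, so mouse and library cannot be told apart; the tags are predictions; RNA of the pad cannot separate cell number from RNA per cell.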
